A study of Mus musculus with 10 samples.

Results

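The T cell receptor (TCR) complex and its partners were followed through 10 genes, chosen by name from the count table. They were Cd3d, Cd3e, Cd3g and Cd247, which encode the CD3 chains of the complex, Cd4, Cd8a and Cd8b1, which encode the coreceptors, Cd28 and Icos, which encode costimulatory receptors, and Lck, which encodes a kinase carried by the coreceptors. These were 10 of the 45706 genes counted, and 9 of the 10 were among the 14550 genes with enough counts to be tested. Cd3g did not pass the filter on low counts and is described by its values. In a tumor, 8 of the genes are used mainly, but not only, by T cells, and Cd4, for example, is also found on some myeloid cells. Cd247 and Lck are used by NK cells too, so these 2 genes were read apart from the other 8. Every library held at least 1 count of each gene.

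A T cell recognizes antigen with the variable TCR chains, which have almost no intracellular part and rely on the CD3 chains for signaling. The coreceptor CD4 or CD8 binds the same MHC molecule as the TCR and brings LCK to the complex, where LCK phosphorylates the CD3 chains and starts the cascade. CD28, bound by CD80 and CD86, and ICOS, bound by ICOSL, add a costimulatory signal. NK cells have no rearranged TCR, but they couple the natural cytotoxicity receptor NKp46 to CD247 and use LCK downstream. In tumors these genes are commonly read as a sign of lymphocyte infiltration.

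RNA was prepared from whole subcutaneous tumors of a Braf-driven mouse melanoma line 4 days after injection into C57BL/6 hosts of 8 weeks. Cyclooxygenases make prostaglandin E2, and the design asks how tumor tissue differs when the cancer cells cannot make it, and how much of that difference needs NK cells. The cells were parental and COX-competent (Ptgs+/+, 4 tumors) or lacked Ptgs1 and Ptgs2 after CRISPR/Cas9 editing (Ptgs-/-, 3 tumors), in hosts that received no depleting antibody. A further 3 Ptgs-/- tumors grew in hosts given 200 µg of anti-NK1.1 (clone PK136) and 30 µg of an antibody to asialo-GM1, on days 0 and 2 per the labels. Every host was of the same strain, and only the cancer cells carried the deletion. There was no NK cell-depleted Ptgs+/+ group, and whether the edited line is a single clone is not given in the sources used here. NK1.1 also marks NKT cells, and asialo-GM1 is carried by some other lymphocytes, so the antibodies are not specific to NK cells.

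Library totals ran from 8150556 to 12839174 counts, and the levels below are CPM, counts scaled to library size after TMM normalization. A level of 3 counts, used as a floor of detection, was 0.238 to 0.363 CPM, which covers counting error only. Ptgs2 stood at 96.5 to 353 CPM in Ptgs+/+ tumors and at 26.0 to 73.8 CPM in both Ptgs-/- groups, while Ptgs1 differed less (128 to 173 against 76.0 to 104 CPM); host cells in the tumor also express both genes. Ncr1, which encodes NKp46, had no count in any of the 3 NK cell-depleted tumors, against 0.749 to 1.15 CPM in Ptgs+/+ and 2.42 to 6.75 CPM in Ptgs-/- tumors. The tissue label was checked against 6 melanocyte genes. Mitf was present at 17.3 to 32.7 CPM, whereas Mlana and Tyr had at most 3 counts in every library. Ptgs+/+ replicate 4 and Ptgs-/- replicate 3 carry a second code in their labels, which may mark another experiment, and the other 8 libraries share the first. Nothing in the labels says which tumors came from separate litters or days, so the p-values measure the spread between these tumors.

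The CD3 genes lie together on chromosome 9 of GRCm38. Cd3g (ENSMUSG00000002033, chr9:44969572-44980431, minus strand) and Cd3d (ENSMUSG00000032094, chr9:44981786-44987339, plus strand) start 1355 bases apart and are read in opposite directions, and Cd3e (ENSMUSG00000032093, chr9:44998740-45009627, minus strand) starts 27825 bases beyond Cd3d. Lck (ENSMUSG00000000409, chr4:129548344-129573641, minus strand) has 2 annotated starts 15269 bases apart, which libraries made from the 3′ ends of transcripts do not tell apart. The 250 bases before these starts are shown because the CD3 genes are neighbors whose levels differed in the same direction, whereas Lck was the 1 member called when NK cells were depleted. The sequences are those of RefSeq for GRCm38.p6, each written 5′ to 3′ on the strand of its gene. Capitals mark matches on either strand to short core motifs of 5 families of lymphoid regulators. RUNX factors were searched as TGTGGT. The ETS family was searched as AGGAAG, the GATA family as AGATAA and the TCF/LEF family as CTTTGA. For E proteins CAGCTG was searched together with a second form of the same motif, CAGGTG.
Cd3g (chr9:44980432-44980681): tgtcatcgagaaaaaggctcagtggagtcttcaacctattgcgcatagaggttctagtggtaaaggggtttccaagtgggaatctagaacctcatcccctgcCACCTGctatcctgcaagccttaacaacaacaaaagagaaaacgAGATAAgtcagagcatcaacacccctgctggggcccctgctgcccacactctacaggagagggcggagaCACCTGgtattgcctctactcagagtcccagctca
Cd3d (chr9:44981536-44981785): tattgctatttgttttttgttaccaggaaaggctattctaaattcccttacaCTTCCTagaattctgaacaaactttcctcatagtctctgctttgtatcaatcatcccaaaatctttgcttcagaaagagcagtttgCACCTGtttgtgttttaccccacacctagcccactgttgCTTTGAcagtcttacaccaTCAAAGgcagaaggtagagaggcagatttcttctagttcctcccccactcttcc
Cd3e (chr9:45009612-45009861): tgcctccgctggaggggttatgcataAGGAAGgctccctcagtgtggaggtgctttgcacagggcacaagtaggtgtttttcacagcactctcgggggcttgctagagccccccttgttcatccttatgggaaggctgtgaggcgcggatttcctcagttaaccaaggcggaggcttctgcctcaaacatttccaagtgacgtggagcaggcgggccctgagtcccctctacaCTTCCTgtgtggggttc
Lck, outer start (chr4:129573642-129573891): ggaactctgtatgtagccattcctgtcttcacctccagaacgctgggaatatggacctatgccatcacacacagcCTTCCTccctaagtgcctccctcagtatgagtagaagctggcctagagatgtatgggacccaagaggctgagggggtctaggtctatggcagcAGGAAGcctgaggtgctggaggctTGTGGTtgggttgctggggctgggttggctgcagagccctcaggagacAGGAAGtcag
Lck, inner start (chr4:129558373-129558622): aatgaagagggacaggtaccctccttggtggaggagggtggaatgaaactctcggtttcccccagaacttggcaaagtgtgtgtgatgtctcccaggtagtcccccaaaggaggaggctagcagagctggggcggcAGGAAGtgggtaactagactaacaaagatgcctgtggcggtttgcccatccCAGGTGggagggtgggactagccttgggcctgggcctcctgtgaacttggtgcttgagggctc

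No 2 of these capitals overlapped. The Cd3d window held 2 TCF/LEF matches, 73 and 54 bases before the start, with an E protein match 112 bases and an ETS match 198 bases before it. In the Cd3g window there were 2 E protein matches and 1 GATA match, and the Cd3e window held 2 ETS matches. The RUNX letters appeared in the outer Lck window, which also held 3 ETS matches. Of 7 member promoters in the table, which belong to Cd3d, Cd3e, Cd3g, Cd247, Cd8a and Lck, 5 held an ETS match, 4 an E protein match and 1 each a RUNX, GATA or TCF/LEF match. Over all 32851 promoters of the same length, the shares were 29.5% for ETS, 27.7% for E proteins, 14.0% for RUNX, 9.99% for GATA and 13.8% for TCF/LEF. The matches describe letters only.

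The other members lie on 2 chromosomes. Cd8b1 (ENSMUSG00000053044, chr6:71322788-71337494) and Cd8a (ENSMUSG00000053977, chr6:71373427-71379173) are neighbors on the plus strand with 35932 bases between them, and Cd4 (ENSMUSG00000023274, chr6:124864692-124888221, minus strand) is on the same chromosome. On chromosome 1, Cd28 (ENSMUSG00000026012, chr1:60716800-60773359) and Icos (ENSMUSG00000026009, chr1:60977927-61000320) share the plus strand with 204567 bases between them, and Cd247 (ENSMUSG00000005763, chr1:165788681-165877277, plus strand) stands alone. Cd247 overlaps 6 other counted genes, 5 of them on the opposite strand with Pou2f1 among these, Icos overlaps Gm37039 and Lck overlaps Mir8119. These overlaps are of whole gene spans, introns included. Whether the counting used strand is not given in the sources used here. Whether reads of an overlapping partner entered the counts of these genes therefore cannot be told.

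The CD3 genes were lowest in Ptgs+/+ tumors. Cd3d, which encodes CD3 delta, stood at 1.27, 1.07, 1.35 and 1.25 CPM in the 4 Ptgs+/+ tumors, at 2.78, 10.7 and 10.8 CPM in the 3 Ptgs-/- tumors, and at 3.64, 3.71 and 2.15 CPM in the 3 NK cell-depleted Ptgs-/- tumors. All 6 Ptgs-/- tumors therefore lay above all 4 Ptgs+/+ tumors, and the 2 Ptgs-/- groups overlapped at Ptgs-/- replicate 1. Cd3e, which encodes CD3 epsilon, was found at 0.0793, 0.749, 0.0898 and 0.209 CPM, at 0.847, 3.68 and 2.10 CPM, and at 1.39, 0.835 and 0.489 CPM in the same order. Its Ptgs+/+ level rests on 11 counts in all, with 3 of the 4 libraries at or under 3 counts. Cd3g, which encodes CD3 gamma, had 3, 3, 1 and 4 counts in Ptgs+/+ tumors, 5, 19 and 10 in Ptgs-/- tumors and 2, 10 and 5 in NK cell-depleted ones. For both Cd3e and Cd3g the lowest Ptgs-/- tumor was above the highest Ptgs+/+ tumor, while the NK cell-depleted group overlapped both other groups.

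The coreceptor genes did not share 1 course. Cd8a, the alpha chain of CD8, was measured at 0.317, 0.214, 0.269 and 0.313 CPM in Ptgs+/+ tumors, 1.21, 1.84 and 1.67 CPM in Ptgs-/- tumors and 1.29, 0.835 and 0.782 CPM after NK cell depletion. These Ptgs+/+ values correspond to 2 to 4 counts per library, and every Ptgs-/- tumor of either host exceeded them. Cd8b1, the beta chain, which is largely restricted to conventional CD8 T cells, was at 0.476, 0.428, 0.269 and 0.313 CPM, at 1.21, 1.33 and 2.37 CPM, and at 1.93, 1.48 and 0.391 CPM. The NK cell-depleted group was split, with replicate 3 inside the Ptgs+/+ range. Cd4 stood at 0.713, 0.535, 1.08 and 1.46 CPM, at 0.847, 2.86 and 2.10 CPM, and at 1.29, 2.41 and 1.37 CPM, so that its groups overlapped in each comparison.

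Both costimulatory receptor genes separated the 4 Ptgs+/+ tumors from the other 6. Cd28 was found at 0.634, 1.18, 0.808 and 1.46 CPM in Ptgs+/+ tumors, 2.78, 4.08 and 5.35 CPM in Ptgs-/- tumors and 1.93, 2.23 and 3.03 CPM with NK cells depleted. Icos, which activated T cells induce, was at 0.793, 0.749, 1.44 and 1.25 CPM, then 2.78, 5.92 and 6.66 CPM, and then 1.93, 2.88 and 2.44 CPM. For each gene the 2 Ptgs-/- groups overlapped at a single pair of tumors, Ptgs-/- replicate 1 and the highest NK cell-depleted tumor.

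The members shared with NK cells were both highest on average in Ptgs-/- tumors. Cd247, which encodes CD3 zeta, was at 1.27, 0.642, 0.987 and 1.36 CPM in Ptgs+/+ tumors, 1.69, 5.41 and 7.80 CPM in Ptgs-/- tumors, and 2.57, 2.51 and 1.17 CPM in NK cell-depleted ones, a group that overlapped both others. Lck stood at 3.01, 3.53, 4.04 and 3.76 CPM in Ptgs+/+ tumors, 9.68, 17.8 and 27.6 CPM in Ptgs-/- tumors and 4.18, 4.82 and 3.62 CPM after depletion. The 3 NK cell-depleted tumors were thus below every Ptgs-/- tumor for Lck, and one of them lay within the Ptgs+/+ range.

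**Figure D1:**
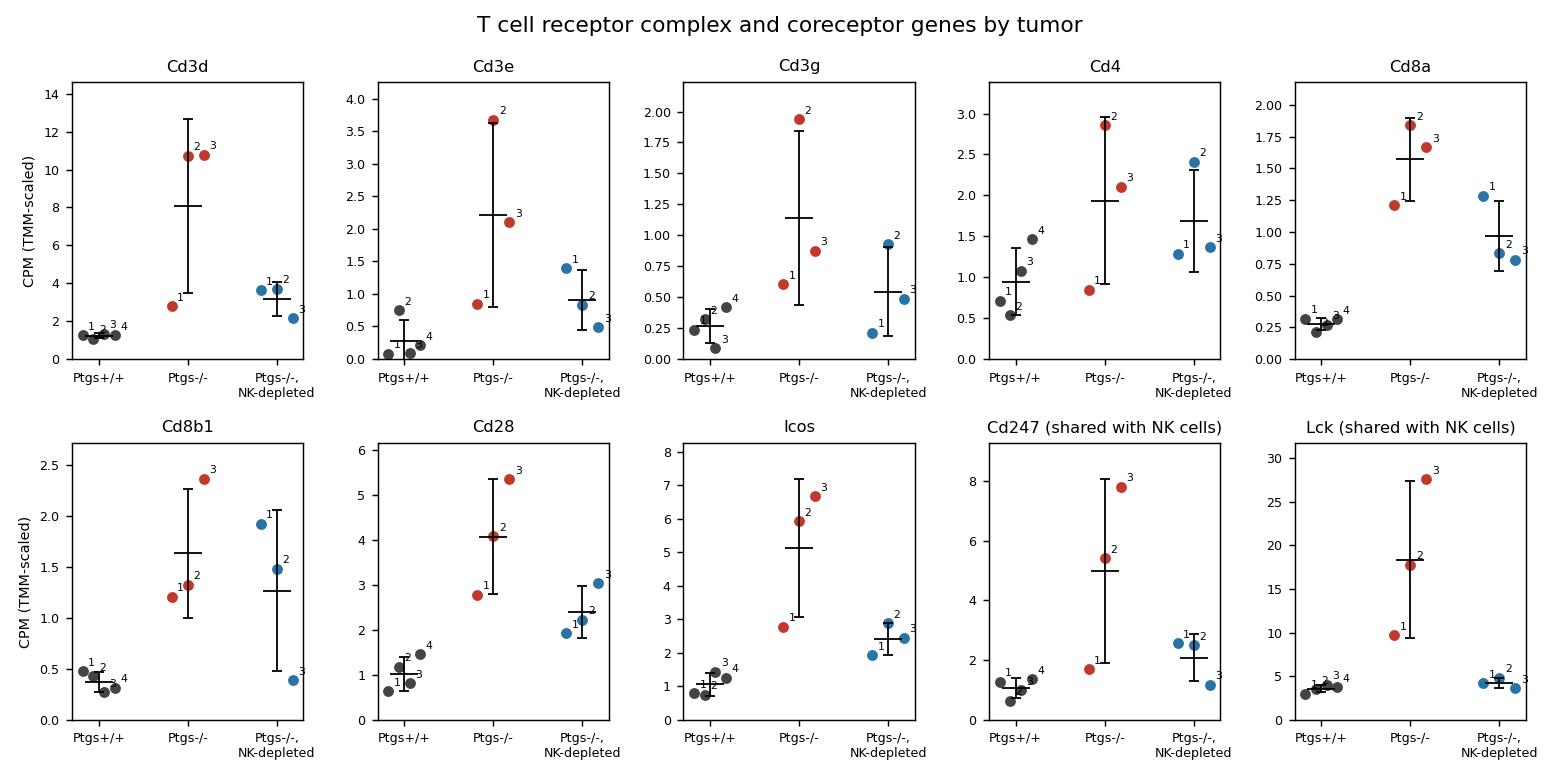
Level of each of the 10 genes by tumor, in TMM-scaled CPM on separate vertical axes that start at 0. Each point is 1 tumor with its replicate number, and the bar is the mean ± SD of 4 Ptgs+/+, 3 Ptgs-/- and 3 NK cell-depleted Ptgs-/- tumors. Ptgs-/- replicate 1 is the lowest of its group for all 10 genes, and for Lck the NK cell-depleted tumors (3.62 to 4.82 CPM) sit beside the Ptgs+/+ tumors (3.01 to 4.04 CPM).

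The comparison of Ptgs-/- with Ptgs+/+ tumors asks what loss of cyclooxygenases in the cancer cells changes while NK cells are present. A gene was called at a false discovery rate (FDR) of 0.05 or less with a log2 fold change of 1.5 or more in either direction, by edgeR's quasi-likelihood test over all 14550 genes. Of the 9 members tested, 8 were called higher in Ptgs-/- tumors, 6 of the 7 T cell genes and both genes shared with NK cells. Of all genes tested, 3.14% were called higher. Their median log2 fold change was 2.28, beside a median of -0.006 over all genes.

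Cd3e had the highest estimate and the widest error, with a log2 fold change of 3.03 ± 0.69 (SE; edgeR adjusted p = 0.0088). Cd3d rose from 1.23 ± 0.117 CPM (SD, n = 4) to 8.10 ± 4.60 CPM (SD, n = 3), a difference of 2.71 ± 0.42 on the log2 scale (edgeR adjusted p = 0.00112). The CD8 chains rose by 2.44 ± 0.37 (Cd8a, edgeR adjusted p = 0.000944) and 2.11 ± 0.52 (Cd8b1, edgeR adjusted p = 0.0135). Lck rose from 3.59 ± 0.435 CPM (SD, n = 4) to 18.4 ± 8.98 CPM (SD, n = 3), or by 2.36 ± 0.30 (edgeR adjusted p = 0.00038). The estimates for Cd28, Icos and Cd247 were 2.02 ± 0.34, 2.28 ± 0.35 and 2.22 ± 0.47, with edgeR adjusted p-values of 0.00174, 0.00105 and 0.00628. Cd4 was the exception at 1.05 ± 0.45 (edgeR adjusted p = 0.12), from 0.947 ± 0.411 CPM (SD, n = 4) to 1.94 ± 1.02 CPM (SD, n = 3).

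The 8 called members also had groups that did not overlap, as did Cd3g, which was not tested, and 15.4% of all genes tested were higher without overlap. Without the filter on low counts, Cd3g gave a log2 fold change of 2.11 ± 0.61 (edgeR adjusted p = 0.0183). In libraries of the first label code alone, 7 members were called, and Cd8b1 was not (1.70, edgeR adjusted p = 0.109). The second code held 1 tumor of each genotype and could not be tested. A bulk tumor does not tell apart fewer cells of a type from less RNA per cell, here or in the comparisons that follow.

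Leukocyte genes as a whole moved with this comparison. The summed level of 7 pan-leukocyte genes, Ptprc among them, was 1006 to 1071 CPM in Ptgs+/+, 1522 to 2312 CPM in Ptgs-/- and 1377 to 1584 CPM in NK cell-depleted Ptgs-/- tumors, with Ptgs-/- replicate 1 the lowest of its group. When libraries were scaled to these 7 genes, an alternative chosen after the data had been seen, the median of all genes moved to -0.91, all 9 tested members stayed above 0 and 3 were called: Cd3d (1.71), Cd3e (2.05) and Cd8a (1.52). The FDR alone was passed by 7 members on that scale. Over all genes, 1500 were called in either direction on it. The shares called higher were not computed for that scale, and those given elsewhere do not apply to it. The member genes were therefore higher relative to other leukocyte genes by less than relative to the whole library.

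The comparison of Ptgs-/- tumors of hosts with and without NK cells asks which of these differences need NK cells. It shares the Ptgs-/- tumors with the first comparison. Lck was the 1 member called higher with NK cells, where 0.323% of all genes were called higher. Its level was 18.4 ± 8.98 CPM (SD, n = 3) with and 4.21 ± 0.605 CPM (SD, n = 3) without NK cells, a log2 fold change of 2.13 ± 0.32 (edgeR adjusted p = 0.00599), and its groups did not overlap. By the FDR alone Lck was again the 1 member, where 0.515% of all genes were higher.

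None of the 7 T cell genes tested was called by edgeR, nor by DESeq2 or a likelihood ratio test, and 3 of them (Cd3d, Icos and Cd28) were at an unadjusted p under 0.05. Their log2 fold changes ran from 0.21 for Cd4 to 1.36 for Cd3d with a median of 0.77, beside -0.01 over all genes, and their edgeR adjusted p-values ran from 0.209 to 0.896. Cd247, the other gene shared with NK cells, was at 1.27 ± 0.48 (edgeR adjusted p = 0.338). All 8 had overlapping groups, and 9.32% of all genes were higher without overlap. These members were measured with standard errors of 0.34 to 0.63 on the log2 scale, and Ptgs-/- replicate 1 sat low for each. Without that tumor 3 members were called: Lck, Cd3d (1.76, edgeR adjusted p = 0.00548) and Cd247 (1.66, edgeR adjusted p = 0.0363). Over 20 alternative settings Cd3d passed the FDR in 2 and Cd247 in 1. Without Ptgs-/- replicate 2, Cd3d was at an edgeR adjusted p of 0.575. In the first label code alone, Cd247 was at an edgeR adjusted p of 0.675. Whether Lck differed by more than the other members was not tested across genes. Lck had 3.48, 1.66 and 2.56 counts for each Cd3d count in the 3 Ptgs-/- tumors, 1.15, 1.30 and 1.68 in the NK cell-depleted tumors and 2.38 to 3.30 in the Ptgs+/+ tumors, a description chosen after the values had been seen. On this ratio the NK cell-depleted tumors were the lowest of the 3 groups, with 1 overlap with Ptgs-/- replicate 2.

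The comparison of NK cell-depleted Ptgs-/- tumors with Ptgs+/+ tumors asks what remains of the difference without NK cells, and it shares a group with each of the others. Cd8a was called higher, from 0.278 ± 0.0481 CPM (SD, n = 4) to 0.967 ± 0.277 CPM (SD, n = 3), a log2 fold change of 1.73 ± 0.39 (edgeR adjusted p = 0.0141). Of all genes tested, 2.01% were called higher. Cd28 passed the FDR but not the fold threshold (1.25 ± 0.35, edgeR adjusted p = 0.0394), and 6.63% of all genes were higher by the FDR alone. The other members were above 0 without passing, from 0.23 ± 0.32 for Lck (edgeR adjusted p = 0.701) to 1.72 ± 0.77 for Cd3e (edgeR adjusted p = 0.174). Cd8b1, the CD8 chain largely restricted to conventional CD8 T cells, was also at 1.72, with a smaller error of 0.54 (edgeR adjusted p = 0.0589). It was not called, and which cells the Cd8a counts came from was not tested. Cd3d, Cd8a, Cd28 and Icos had groups that did not overlap, where 13.6% of all genes did so upward.

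The call of Cd8a rested on few counts. It was lost without NK cell-depleted replicate 1 (1.49, edgeR adjusted p = 0.0704), and Cd8b1 joined it without NK cell-depleted replicate 3 (2.16, edgeR adjusted p = 0.0151). When the 2 groups were fitted alone, no member was called, because Cd8a no longer passed the filter on low counts. Ranked by mean level, all 10 members followed the order Ptgs+/+, then NK cell-depleted Ptgs-/-, then Ptgs-/-. The first 2 of these groups overlapped for Cd3e, Cd3g, Cd4, Cd8b1, Cd247 and Lck. The last 2 overlapped for every member except Lck, and only Cd4 also overlapped between Ptgs+/+ and Ptgs-/- tumors.

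**Figure D2:**
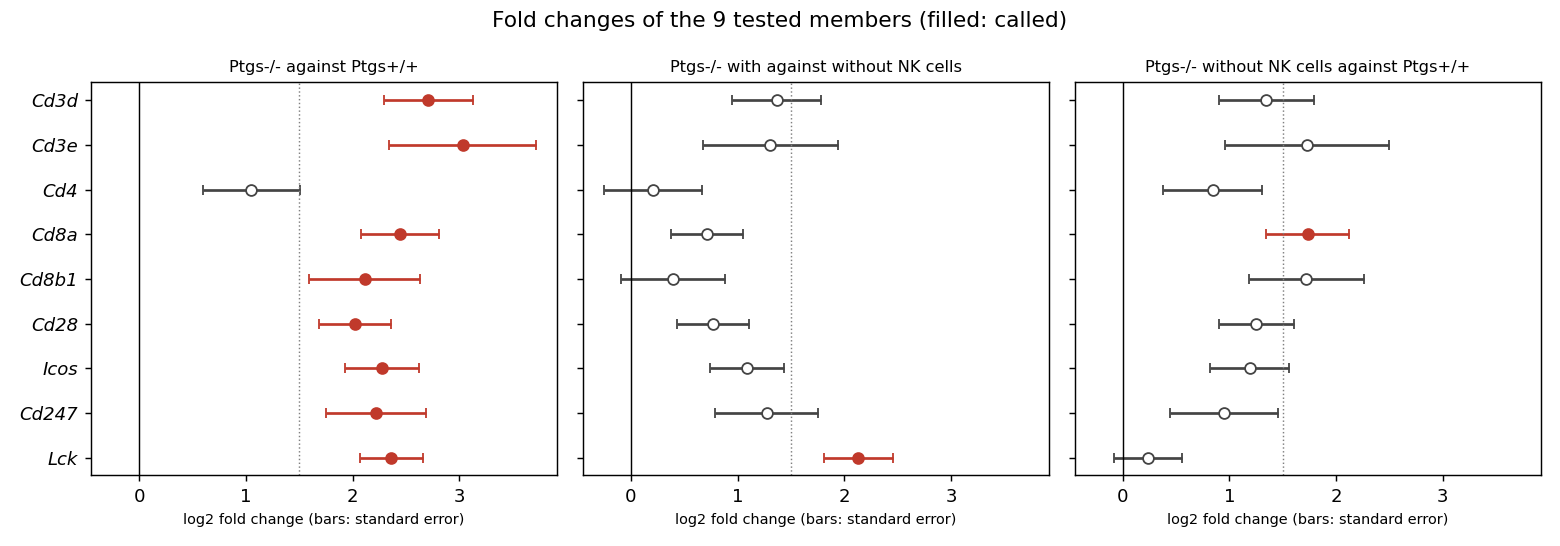
Log2 fold change of the 9 tested members in each of the 3 comparisons, with bars for the standard error. Filled points were called (FDR of 0.05 or less and past the dotted line at 1.5), which holds for 8 members in the first panel, Lck in the second and Cd8a in the third.

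The balance between members was compared within each library, where no scaling enters. The log2 ratio of Cd8a to Cd4 counts (0.5 added to each) averaged -1.53 ± 0.491 over the 4 Ptgs+/+ tumors, -0.16 ± 0.574 over the 3 Ptgs-/- tumors and -0.75 ± 0.740 over the 3 NK cell-depleted tumors (± SD). All 3 Ptgs-/- tumors were above all 4 Ptgs+/+ tumors, a difference of 1.37 (exact two-sided permutation p = 0.0571, the smallest these group sizes allow, and 0.343 after Benjamini-Hochberg adjustment over 6 tests). The NK cell-depleted tumors overlapped both groups (exact permutation p = 0.4 and 0.229). The log2 ratio of Cd247 to Cd3e, a shared gene against a T cell gene, was 2.16 ± 1.63, 1.12 ± 0.676 and 1.19 ± 0.337 in the same order, with exact permutation p-values from 0.343 to 1. In Ptgs+/+ tumors it rests on Cd3e counts of 1 to 7.

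The constant genes of the TCR chains, which can also be transcribed from loci that have not rearranged, were compared next as partners of the CD3 chains. Of 7 genes, 4 were tested, and 3 were called higher in Ptgs-/- than in Ptgs+/+ tumors. Trac, the alpha constant gene, stood at 0.634, 1.18, 0.628 and 1.15 CPM in Ptgs+/+, 3.99, 7.56 and 11.05 CPM in Ptgs-/- and 2.89, 3.15 and 3.71 CPM in NK cell-depleted Ptgs-/- tumors. Its 3 groups did not overlap. It rose by 3.09 ± 0.37 in the first comparison (edgeR adjusted p = 0.000273) and was called in NK cell-depleted against Ptgs+/+ tumors as well (1.87 ± 0.38, edgeR adjusted p = 0.00863), whereas with against without NK cells it was at 1.22 ± 0.35 (edgeR adjusted p = 0.167).

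The beta constant genes Trbc1 and Trbc2 are nearly identical, so the split of reads between them is uncertain. Both were called higher in Ptgs-/- than Ptgs+/+ tumors, at 2.59 ± 0.47 and 2.41 ± 0.38. Trbc1 was also called with against without NK cells (2.36 ± 0.51, edgeR adjusted p = 0.0476), where Trbc2 was not (1.25 ± 0.39, edgeR adjusted p = 0.219). Trdc, the delta constant gene, was not called in any comparison. Its levels were 1.82, 2.25, 1.44 and 2.19 CPM in Ptgs+/+, 0.968, 2.35 and 5.00 CPM in Ptgs-/- and 0.643, 1.30 and 0.391 CPM in NK cell-depleted tumors, so that all 3 depleted tumors were below all 4 Ptgs+/+ tumors (-1.27 ± 0.55, edgeR adjusted p = 0.164). The gamma constant genes Tcrg-C1, Tcrg-C2 and Tcrg-C4, similar in sequence, were not tested. Tcrg-C1 had at most 6 counts and Tcrg-C2 at most 5, and Tcrg-C4 had 7, 9 and 13 counts in the Ptgs-/- tumors and at most 3 in the other 7.

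Genes acting directly below the TCR followed the members in part. Of 21 genes, 16 were tested, and 9 were called higher in Ptgs-/- than Ptgs+/+ tumors (14 by the FDR alone, where 12.1% of all genes were higher), with a median of 1.59. Among the 9 were Zap70, the kinase recruited to phosphorylated CD3 chains, Lat, the adaptor that it phosphorylates, and Txk, Skap1, Grap2, Rasgrp1 and Prkcq. In Ptgs+/+ tumors Csk, Plcg1, Ptpn6, Fyn, Lcp2 and Vav1 averaged 74.4, 55.7, 37.0, 30.2, 29.0 and 26.9 CPM, beside 1.23 CPM for Cd3d. None of them was called in any comparison, and which cells their counts came from was not tested.

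Txk, a Tec family kinase of T cells and NK cells, was the 1 gene of this list that edgeR's quasi-likelihood test called with against without NK cells, where DESeq2 and the likelihood ratio test each called 3. Txk was at 1.90, 1.61, 1.80 and 2.30 CPM in Ptgs+/+, 4.72, 5.41 and 9.99 CPM in Ptgs-/- and 1.61, 0.928 and 0.586 CPM in depleted tumors, a difference of 2.70 ± 0.39 (edgeR adjusted p = 0.00433). All 3 depleted tumors were below every Ptgs-/- tumor for Txk. The list had a median of 0.57 in this comparison and of 0.55 in NK cell-depleted against Ptgs+/+ tumors, where 2 genes were called.

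Of 10 further costimulatory and adhesion receptors of T cells, 9 were tested and 7 were called higher in Ptgs-/- than Ptgs+/+ tumors, with a median of 2.11. With against without NK cells the median was 1.03, and edgeR called none, with 7 at an unadjusted p under 0.05, where DESeq2 and the likelihood ratio test each called 1. In NK cell-depleted against Ptgs+/+ tumors edgeR called 1. Cd5, an inhibitory receptor of T cells, had the largest rise, 2.95 ± 0.58 (edgeR adjusted p = 0.00435), from 0.450 ± 0.381 CPM (SD, n = 4) to 3.50 ± 1.27 CPM (SD, n = 3). It was also the gene called after NK cell depletion (2.15 ± 0.61, edgeR adjusted p = 0.0408), although these groups overlapped. Thy1, which was not called, averaged 104 CPM in Ptgs+/+ tumors, and which cells its counts came from was not tested.

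The ligands of CD28 and ICOS were not called in any comparison, by edgeR, DESeq2 or the likelihood ratio test, but all passed the FDR in the first. Cd80, Cd86 and Icosl, found mostly on antigen-presenting cells, were higher in Ptgs-/- than Ptgs+/+ tumors by 0.98 ± 0.30, 0.93 ± 0.21 and 1.46 ± 0.21 (edgeR adjusted p = 0.0326, 0.00814 and 0.000734). In none of the 3 did the groups overlap. Cd80 stood at 28.5 ± 0.106 CPM (SD, n = 3) in NK cell-depleted tumors, above all Ptgs+/+ tumors (1.14 ± 0.29, edgeR adjusted p = 0.0274), and so did Icosl (0.77 ± 0.21, edgeR adjusted p = 0.035). Cd86 was at 14.0 ± 2.48 CPM after depletion and did not pass (0.28 ± 0.21, edgeR adjusted p = 0.438).

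Of 12 genes that mark naive, activated or regulatory states, 11 were tested, and Bcl11b, Il2ra and Ctla4 were called higher in Ptgs-/- than Ptgs+/+ tumors. By the FDR alone 6 rose and 1 fell. In the other comparisons edgeR called none of the list, with 2 genes at an unadjusted p under 0.05 with against without NK cells and 4 in depleted against Ptgs+/+ tumors, where DESeq2 and the likelihood ratio test each called 1. Ctla4, an inhibitory receptor for CD80 and CD86, had the largest rise, 2.70 ± 0.66 (edgeR adjusted p = 0.0129), on 4, 3, 1 and 3 counts in Ptgs+/+, 4, 32 and 16 in Ptgs-/- and 6, 19 and 11 in NK cell-depleted tumors. Its lowest Ptgs-/- tumor had the same count as the highest Ptgs+/+ tumor, in a smaller library. Cd44, S1pr1, Klf2 and Tcf7 of this list averaged 711, 66.3, 55.1 and 36.1 CPM in Ptgs+/+ tumors. Which cells those counts came from was not tested.

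**Figure D3:**
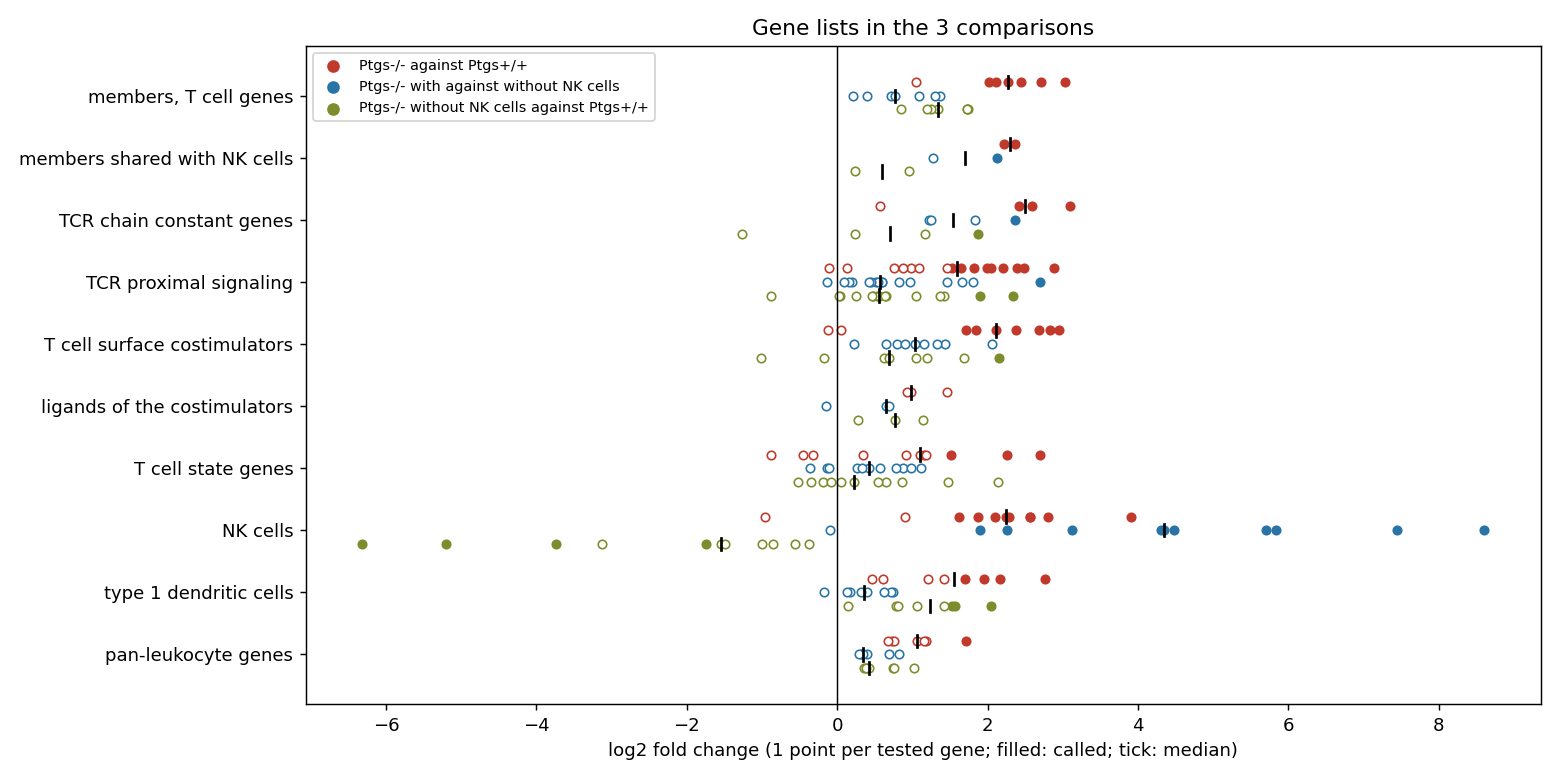
Log2 fold change of each tested gene of the members and of 8 related lists in the 3 comparisons, 1 point per gene, filled where called, with a tick at the list's median. T cell members have medians of 2.28, 0.77 and 1.35, and of the lists drawn, the NK cell list is the one with a median below 0 in NK cell-depleted against Ptgs+/+ tumors (-1.55).

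Markers of other cells moved with these groups, and their part in the members' differences was not tested. Of 12 NK cell markers 11 were tested, 9 were called higher in Ptgs-/- than Ptgs+/+ tumors and 10 with against without NK cells, and 4 were called lower in NK cell-depleted than Ptgs+/+ tumors. Their summed level was 264 to 296 CPM, 234 to 333 CPM and 108 to 173 CPM in Ptgs+/+, Ptgs-/- and depleted tumors. Klra4 alone was at 217 to 263 CPM in Ptgs+/+, 111 to 142 CPM in Ptgs-/- and 97.9 to 164 CPM in depleted tumors. Against the direction of the called genes, it was lower in Ptgs-/- than Ptgs+/+ tumors (-0.96 ± 0.16, edgeR adjusted p = 0.00186). With Klra4 set aside after the values were seen, the other 11 genes summed to 23.1 to 46.3, 103 to 209 and 9.10 to 9.87 CPM. Klrb1c, which encodes NK1.1, was at 1.498 to 2.40, 8.35 to 14.6 and 0.293 to 1.02 CPM.

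Of 8 type 1 dendritic cell genes, all tested, 4 were called higher in Ptgs-/- than Ptgs+/+ tumors and 3 in the depleted ones, and their sum was 164 to 177, 372 to 492 and 311 to 360 CPM. Genes of plasmacytoid dendritic cells, which can express Cd4 in mice, summed to 561 to 651, 641 to 800 and 636 to 736 CPM, with 1 of 6 called higher in Ptgs-/- than Ptgs+/+ tumors. Tcf4 made up most of these sums, at means of 547, 545 and 541 CPM, so they say little about the other genes. Siglech averaged 1.78, 4.34 and 3.55 CPM, and Cox6a2 averaged 2.84, 7.72 and 45.3 CPM. Cox6a2 was called lower with than without NK cells (-2.57 ± 0.37, edgeR adjusted p = 0.00433), the direction of the skeletal muscle genes below. No other gene of its list was called in that comparison. Whether the Cox6a2 counts came from muscle was not tested. Of 6 genes of type 2 innate lymphoid cells, 4 were tested and 1, Il1rl1, was called lower in Ptgs-/- than Ptgs+/+ tumors, and they summed to 525 to 741, 107 to 203 and 169 to 186 CPM. Il1rl1 alone made up most of these sums, at means of 556, 111 and 121 CPM.

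B cell genes stood out in a single tumor. Their sum was 2.72 to 4.07 CPM in Ptgs+/+ and 4.84 to 6.03 CPM in Ptgs-/- tumors, and 22.5, 5.38 and 3.91 CPM in NK cell-depleted replicates 1, 2 and 3, with 2 of 8 genes tested and none called by edgeR or DESeq2 (1 was at an unadjusted p under 0.05 in each comparison with Ptgs+/+ tumors). Depleted replicate 1 also had the highest Cd3e, Cd8a, Cd8b1 and Cd247 of its group, and the lowest Cd3g, Cd4, Cd28 and Icos. Its Cd3d and Lck lay between those of the other depleted tumors. Skeletal muscle genes were called higher in depleted tumors for 9 of the 9 tested, and summed to 25.1 to 169, 106 to 371 and 2325 to 5388 CPM, the highest in replicate 3, the depleted tumor with the lowest Cd3d, Cd3e, Cd8a, Cd8b1, Cd247 and Lck and the highest Cd28 of its group, while its Cd3g, Cd4 and Icos lay between those of the other two. Of 6 keratinocyte genes 5 were tested and 1 was called lower in Ptgs-/- than Ptgs+/+ tumors, with sums of 18.9 to 34.0, 19.1 to 21.8 and 25.8 to 28.0 CPM.

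**Figure D4:**
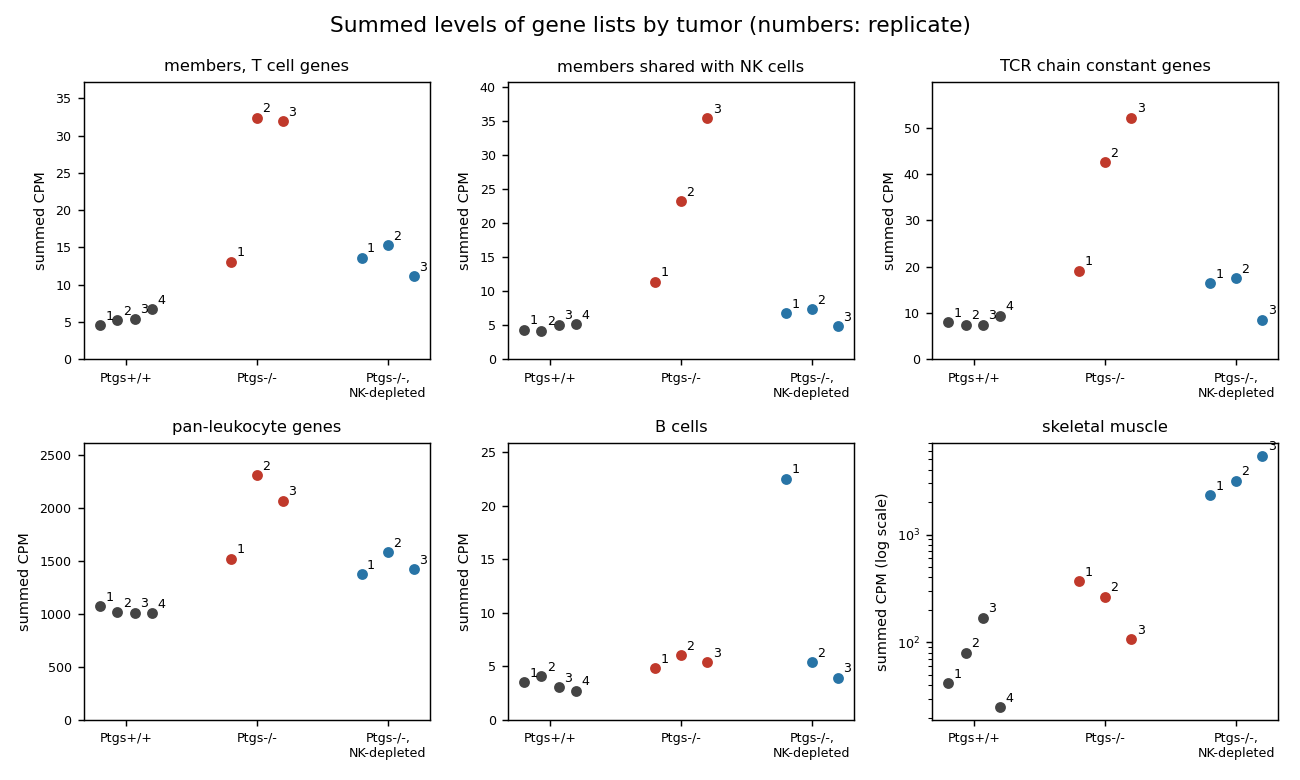
Summed TMM-scaled CPM of 6 gene lists by tumor, 1 point per tumor with its replicate number; the vertical axes start at 0 except for skeletal muscle, which is on a log scale. The T cell members sum to 13.1, 32.4 and 31.9 CPM in Ptgs-/- tumors and 11.1 to 15.3 CPM in depleted ones, so the groups overlap, whereas the 2 shared members sum to 11.4, 23.2 and 35.4 CPM against 4.79 to 7.33 CPM and do not.

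The genes outside the lists whose course was most like that of the CD3 genes were found by distance from the mean centered log2 CPM of Cd3d, Cd3e and Cd3g over the 10 libraries. The 5 nearest were Fcho1, Ly6c2, Rnase6, Arhgap15 and Slamf6, with root mean square distances of 0.27, 0.33, 0.34, 0.36 and 0.37 on the log2 scale. Among the members themselves, the CD3 genes that form this mean were at 0.34 (Cd3d), 0.39 (Cd3e) and 0.45 (Cd3g). The distance was 0.43 for Icos, 0.44 for Cd8a and 0.44 for Cd28, 0.47 for Cd247, 0.55 for Lck, 0.58 for Cd8b1 and 0.65 for Cd4. Slamf6, a SLAM family receptor of lymphocytes, stood at 1.33 ± 0.283 CPM (SD, n = 4), 5.12 ± 1.504 CPM (SD, n = 3) and 2.82 ± 0.246 CPM (SD, n = 3) in Ptgs+/+, Ptgs-/- and depleted tumors. All 5 were called higher in Ptgs-/- than Ptgs+/+ tumors, by 1.74 to 2.19, and none met both thresholds in the other comparisons. Because they were chosen for likeness to the CD3 course over these same libraries, this outcome follows from the choice and is no separate result.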

How the data were processed

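The 10 tumors were grouped by the submitters' labels. The authors made 3′ libraries (QuantSeq), trimmed reads with BBDUK, fqtrim and cutadapt, used STAR to map them to GRCm38 and featureCounts to assign them to Ensembl genes, and deposited raw counts per gene, not normalized or pooled. Strand setting and molecular identifiers are not given in the sources used here. The depletion schedule printed is that of the labels; the study's methods give a different one.

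Symbols and coordinates came from GENCODE on GRCm38 (45143 of 45706 identifiers named). In R 4.3.3, edgeR 4.0.16 kept 14550 genes with filterByExpr, scaled by TMM and fitted all 10 libraries in 1 quasi-likelihood model with 3 contrasts and Benjamini-Hochberg adjustment. Calls used the study's thresholds. Ratios were compared by exact two-sided permutation of libraries. Alternatives used DESeq2 1.42.0, other scalings, filters, fits, label codes and each library left out. The fit was tested on simulated data. No pair of replicates was a duplicate (chi-square per degree of freedom 7.41 to 30.1).

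Named genes are all members, the TCR constant genes and the ligands, the largest called rise and fall of each other list in the first 2 comparisons, label checks, and the 5 nearest genes. The members and lists were chosen with earlier results of these data known. Melanocyte genes and the ratio of Lck to Cd3d were added after the values were seen. So were the other genes of the lists named only by their call or their level in Ptgs+/+ tumors, and Klra4, Il1rl1, Tcf4, Siglech and Cox6a2. Some genes that the rule names are not reported here.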

Additional observations from a re-analysis of the deposited data

Results flagged for a closer look

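In groups of 4 tumors, the gap of the highest or lowest tumor to its neighbor was checked against Dixon's critical value for 33 genes, and chance gives about 1 such tumor in 20 groups. None of the 10 members was among the 4 genes found, all in Ptgs+/+ tumors. Cd80 was at 5.12 CPM in replicate 3, against 15.1 to 16.1 CPM in the others, and Ptgs2 was also lowest in that tumor (96.5 CPM, against 282 to 353). Cd86 was at 12.2 CPM in replicate 4, against 11.2 to 11.4 CPM. Ctla4 was at 0.0898 CPM in replicate 3, which is 1 count, against 0.313 to 0.321 CPM. Fcho1 was at 1.35 CPM in replicate 1, against 1.97 to 2.09 CPM. Groups of 3 tumors were not checked.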

How the results depend on the processing

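Of 8 members called between Ptgs-/- and Ptgs+/+ tumors, 7 to 9 were called under each other choice of scaling, test, filter, threshold or samples (7 to 8 when single libraries were left out) and 3 when libraries were scaled to pan-leukocyte genes. With against without NK cells, 1 was called under each alternative that kept all libraries, and 1 to 3 when one was left out. Between NK cell-depleted Ptgs-/- and Ptgs+/+ tumors the count was 1, but 2 by the FDR alone, with a likelihood ratio test or with no filter, 0 with only those groups in the fit, 0 on the pan-leukocyte scale, and 0 to 2 with single libraries left out. With against without NK cells, Cd8b1 ran from -0.016 (without NK cell-depleted replicate 3) to 0.80 with single libraries left out and was -0.034 on the pan-leukocyte scale, and Cd4 ran from -0.15 (without Ptgs-/- replicate 2) to 0.56 and was -0.25 on that scale, where Lck was -0.28 in depleted against Ptgs+/+ tumors. That scale moved the median of all genes to -0.41 and -0.51 in these comparisons, and all 9 members tested stayed above it. For the values with single libraries left out, the cause was not tested. The log2 ratio of Cd247 to Cd3e, -0.07 with against without NK cells, ran from -0.44 to 0.22 with single libraries left out (0.02 without Ptgs-/- replicate 1, 0.22 without Ptgs-/- replicate 2 and 0.10 without NK cell-depleted replicate 2).

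Same-numbered tumors of different groups had correlations of -0.24 to 0.36, and differently numbered ones of -0.43 to 0.17. These ranges overlap, so they do not settle whether the label numbers pair the tumors. A replicate block left the counts at 8, 1 and 1. Depth limits Cd3e, Cd3g, Cd8a and Cd8b1 most, with 2 or 3 of the 4 Ptgs+/+ libraries at 3 counts or fewer.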
